A study of Homo sapiens with 12 samples.

Results

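The 10 genes described here encode, or in 1 case copy, secreted proteins and markers of apocrine breast epithelium. They were taken by symbol from the deposited table of 60670 genes, and all 10 were found there. They are AZGP1 and its pseudogene copy AZGP1P1, PIP, MUCL1, SCGB2A2, SCGB1D2, APOD, CLU, DHRS2 and SERHL2. RNA was sequenced from MDA-MB-453, a human breast cancer line long kept in culture. In 6 libraries the cells had received 10 nM dihydrotestosterone (DHT), a potent natural androgen, for 6 h. The other 6 libraries came from cells given vehicle, which was 0.001% ethanol, for the same time. The medium of both groups over 72 h of growth was DMEM (high glucose) and 10% FBS, so serum was present in the vehicle cultures too. The labels describe the replicates of each group as coming from consecutive passages of the 1 line, so the p-values measure the spread between these cultures.

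Apocrine epithelium is the sweat-gland-like form of secretory epithelium that appears in benign breast cysts and in some breast tumours. Its cells release a characteristic set of small proteins into the lumen, including zinc-alpha-2-glycoprotein (AZGP1), prolactin-induced protein (PIP), apolipoprotein D and the secretoglobins. Many of these products are known as genes that respond to androgen in breast or prostate cells. The comparison asked which of them the line expressed without added androgen and which changed after DHT.

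AZGP1 and AZGP1P1 are neighbours on chromosome 7 and share sequence, which matters for reads of 40 bases. On GRCh38, the counted AZGP1 gene (ENSG00000160862) lies at 99966720 to 99976042 on the minus strand. AZGP1P1 (ENSG00000214313), which the authors' deposited table classes as a transcribed unprocessed pseudogene, lies 4.72 kb away at 99980762 to 99987535 on the plus strand. An alignment of transcripts AZGP1-201 and AZGP1P1-201 (GENCODE v29) paired 899 bases, of which 818 (91%) were identical. Of all 40-base stretches in the 6 AZGP1 transcripts together, 7.48% also occurred in AZGP1P1. Of those in the 2 AZGP1P1 transcripts, 12.2% occurred in AZGP1. Only exact matches were counted, and the shares can differ for a single transcript. A further gene, AZGP1P2, held 3.78% of the AZGP1P1 stretches, and in all 15.9% of them occurred in another gene. The 40-base windows below show both extremes of the AZGP1 coding sequence, with bases that differ between the genes in capitals. The 1st pair (AZGP1 chr7:99975965-99976004, minus strand, and AZGP1P1 chr7:99980789-99980828, plus strand) is identical, so a read from it cannot be assigned to either gene by its sequence. The 2nd pair (AZGP1 chr7:99971928-99971967, minus strand, and AZGP1P1 chr7:99983183-99983222, plus strand) differs at 19 bases.
AZGP1 identical window: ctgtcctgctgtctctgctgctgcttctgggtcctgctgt
AZGP1P1 identical window: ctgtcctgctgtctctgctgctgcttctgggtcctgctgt
AZGP1 different window: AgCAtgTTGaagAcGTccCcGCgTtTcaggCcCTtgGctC
AZGP1P1 different window: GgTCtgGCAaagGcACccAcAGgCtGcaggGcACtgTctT

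Library totals ran from 9486951 to 25678781 counts under DHT and from 4346465 to 16963880 counts under vehicle. A single count was worth 0.0456 to 0.214 CPM, that is, counts scaled to a common library size. All 8 luminal breast markers examined were above 1 CPM on average, with a summed level of 3282 to 6624 CPM in DHT libraries and 4315 to 9076 CPM in vehicle libraries. The 8 basal markers summed to 4.83 to 7.02 CPM under DHT and 12.4 to 20.8 CPM under vehicle, with 5 of the 8 under 1 CPM. The 7 fibroblast markers summed to 59.9 to 75.9 CPM under DHT and 76.5 to 110 CPM under vehicle, with 4 of the 7 under 1 CPM. Leukocyte markers summed to at most 0.854 CPM in any library, with 2 of 6 at 0 throughout, and endothelial markers to at most 1.55 CPM. A principal component that took up 51.1% of the variance set both replicate 2 libraries apart. Vehicle replicate 5 had the highest mitochondrial share of counts, 8.07%, against 3.03% to 4.00% in the DHT libraries and 3.09% to 5.66% in the other vehicle libraries.

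Under vehicle, the apocrine products fell into a very abundant one, a middle group and a low group. Levels of different genes were compared as CPM per kb of each gene's longest principal transcript, or its longest transcript where none is marked principal. AZGP1 averaged 776 ± 103 CPM per kb in DHT libraries and 406 ± 106 in vehicle libraries (SD, n = 6 each). Next in vehicle cells came AZGP1P1 at 71.1 ± 17.3, MUCL1 at 61.1 ± 34.5, PIP at 48.7 ± 20.5 and CLU at 32.8 ± 12.7 CPM per kb, and the ranges of neighbours in this order overlapped. Counts came from the whole counted gene models, so this order depends on the length used. By counted length the vehicle means were 49.3 for PIP, 48.4 for AZGP1P1, 16.1 for CLU and 7.23 for MUCL1. In DHT libraries AZGP1P1 held 155 ± 17.3 CPM per kb, with its lowest library at 134, clear of the highest MUCL1 library at 78.5. The low group held SCGB2A2, SERHL2 and DHRS2, with vehicle means of 3.41 ± 1.75, 1.86 ± 0.531 and 1.33 ± 0.747 CPM per kb. APOD (0.470 ± 0.487) and SCGB1D2 (0.197 ± 0.186) were lowest, and the ranges of all neighbours in the low group overlapped under vehicle.

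DHT raised AZGP1 and AZGP1P1 and no other member at the threshold used. The test was edgeR's quasi-likelihood test with Benjamini-Hochberg adjustment, and a gene was called at an adjusted p under 0.05. Of the 10 genes, 8 had enough counts to be tested. Of these, 2 were raised, where 1.96% of the 16355 tested genes were, and 0 were lowered, where 0.88% were. The genes were chosen with earlier results of these data known, so setting them beside all tested genes is no test. The 2 raised genes share sequence and may not be 2 separate results. DESeq2 and limma-voom also called 0 of the 8 lowered. DESeq2 called 3 raised (510 of 16345 genes were), the further one being SERHL2. Over the alternatives the raised count ran from 2 to 3 and the lowered count from 0 to 2. At an unadjusted p under 0.05 edgeR had 3 raised (6.59% of all tested genes were) and 1 lowered (5.41% were). Over the 8, the median log2 fold change was -0.04, beside -0.05 for all tested genes. In bulk RNA, a change in the share of cells that make a transcript and a change in the amount per cell cannot be told apart.

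**Figure D1:**
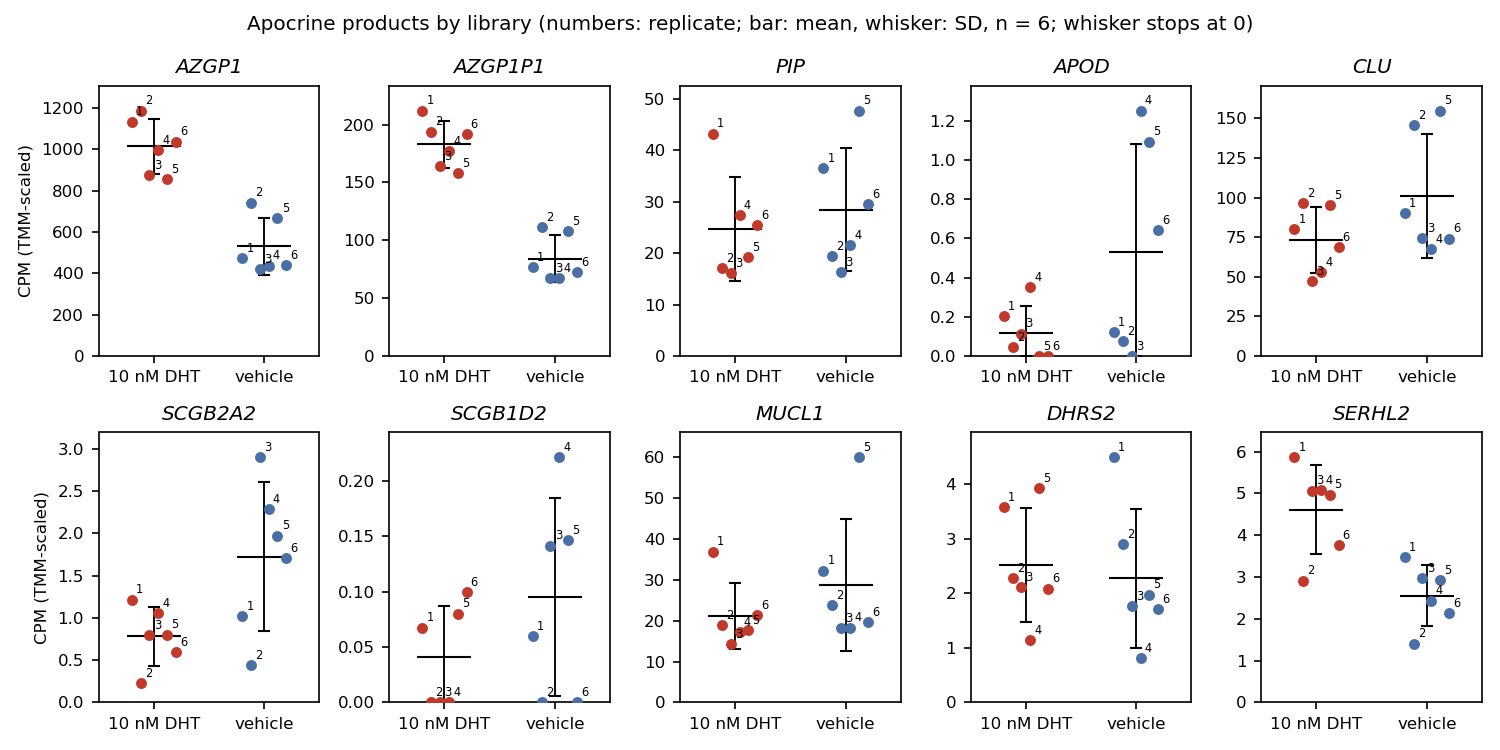
Scaled levels (CPM, linear axis from 0 in each panel) of the 10 genes in the 6 DHT libraries (left, red) and the 6 vehicle libraries (right, blue), with the replicate number beside each point, the mean as a bar and the SD as whiskers. AZGP1 and AZGP1P1 separate fully, SERHL2 nearly so, and the other genes overlap.

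AZGP1 encodes zinc-alpha-2-glycoprotein, a secreted protein with a fold like that of MHC class I heavy chains that is known for promoting fat breakdown. It had 1134, 1188, 874, 996, 856 and 1038 CPM in DHT replicates 1 to 6, against 472, 742, 422, 437, 668 and 441 CPM in vehicle replicates 1 to 6. Every DHT library was above every vehicle library, a pattern that 2.28% of tested genes showed. Vehicle replicates 2 and 5 were the highest of their group. The mean was 1015 ± 134 CPM with DHT and 530 ± 138 CPM with vehicle (SD, n = 6 each). This gave a log2 fold change of 0.94 (SE 0.17, 95% interval 0.57 to 1.30, adjusted p = 0.00807), which is 1.91-fold. Ranked by CPM per kb of counted gene length, AZGP1 was number 66 of the tested genes in DHT libraries and number 177 in vehicle libraries. The authors' deposited table lists a log2 fold change of 1.01 (FDR 4.87e-05).

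AZGP1P1 rose with AZGP1 and by a slightly larger factor. It had 212, 194, 164, 177, 158 and 192 CPM in DHT replicates 1 to 6, against 76.8, 112, 67.3, 67.3, 108 and 72.6 CPM in vehicle replicates 1 to 6. Again no DHT library fell within the vehicle range, and vehicle replicates 2 and 5 were highest among vehicle libraries, as for AZGP1. The log2 fold change was 1.12 (SE 0.15, 95% interval 0.79 to 1.45, adjusted p = 8.83e-04), and the authors' deposited table lists 1.19 (FDR 6.43e-05). Both genes had counts that were not whole numbers in all 12 libraries.

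The pseudogene's counts amounted to 18.1% ± 0.928 of the AZGP1 counts in DHT libraries and 15.9% ± 0.554 in vehicle libraries (SD, n = 6 each). The DHT libraries ranged from 16.3% to 18.8% and the vehicle libraries from 15.04% to 16.5%, so the groups overlapped only through DHT replicate 2. The difference of 2.19 percentage points had an exact two-sided permutation p = 0.00433 over 924 labelings of the libraries (adjusted p = 0.0130 over 3 such tests). This comparison was not among those planned. How reads that match both genes were assigned is not given in the sources used, and how much they add to either level was not tested. Among 15505 genes with a symbol and at least 1 CPM, AZGP1P1 had the profile most like AZGP1 over the 12 libraries, and AZGP1 the one most like AZGP1P1. Their centred log2 CPM differed by 0.102 on average. The next nearest to AZGP1 were MPC2, a subunit of the mitochondrial pyruvate carrier, at 0.152 and NAGK, N-acetylglucosamine kinase, at 0.159. The next nearest to AZGP1P1 were CCDC86 at 0.153 and the homeobox gene IRX3 at 0.160.

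**Figure D2:**
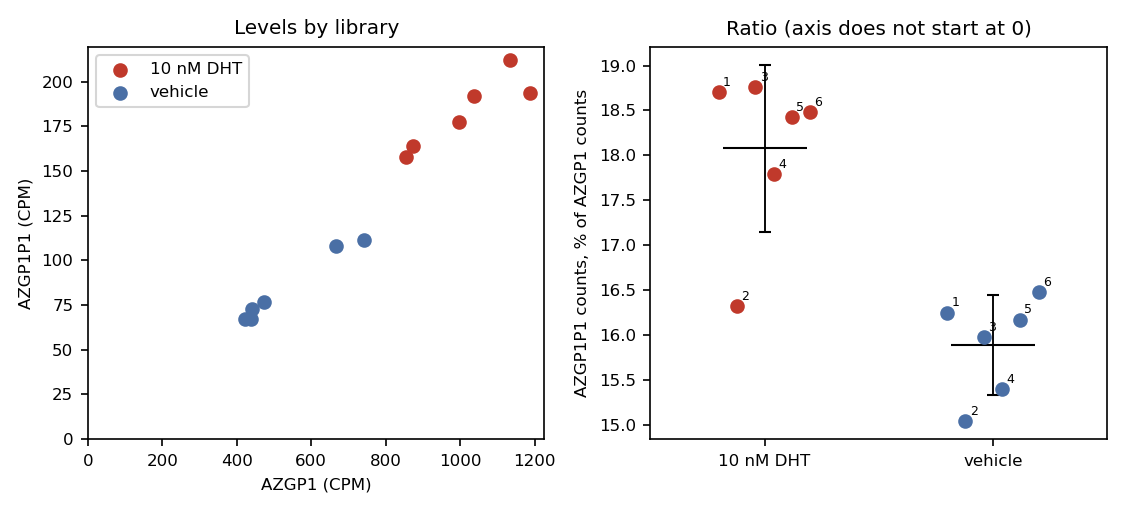
Left, AZGP1P1 against AZGP1 in CPM (linear axes from 0), 1 point per library, red for DHT and blue for vehicle. Right, AZGP1P1 counts as a percent of AZGP1 counts by library (the axis does not start at 0), with the mean as a bar and the SD as whiskers: DHT libraries hold 16.3% to 18.8% and vehicle libraries 15.04% to 16.5%.

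PIP, MUCL1 and the secretoglobins are small secreted proteins of apocrine and mammary epithelium, and none of them passed the test. PIP (ENSG00000159763, chromosome 7, 143132077 to 143139739, plus strand on GRCh38) encodes prolactin-induced protein, also called gross cystic disease fluid protein, a diagnostic marker of apocrine differentiation. It had 43.3, 17.1, 16.1, 27.4, 19.2 and 25.4 CPM in DHT replicates 1 to 6, against 36.5, 19.4, 16.3, 21.6, 47.8 and 29.5 CPM in vehicle replicates 1 to 6. The groups overlapped over most of their range, and the spread within each group exceeded the difference between their means. The log2 fold change was -0.20 (SE 0.29, 95% interval -0.83 to 0.42, adjusted p = 0.903 by edgeR). Without vehicle replicate 5 the log2 fold change was 0.0084.

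MUCL1 encodes small breast epithelial mucin (ENSG00000172551, chromosome 12, 54830518 to 54896008, plus strand). It had 36.9, 18.9, 14.3, 17.3, 17.6 and 21.3 CPM in DHT replicates 1 to 6, against 32.2, 23.8, 18.3, 18.3, 60.0 and 19.7 CPM in vehicle replicates 1 to 6. DHT replicate 1 and vehicle replicate 5 stood above the rest of their groups, and the groups overlapped. The log2 fold change was -0.45 (SE 0.31, 95% interval -1.12 to 0.22, adjusted p = 0.703), and -0.10 without vehicle replicate 5. Without DHT replicate 1 it was -0.69 (adjusted p = 0.433). The counted gene model held 3971 bases against 470 in transcript MUCL1-201, so its level in vehicle cells was 7.23 CPM per kb by the counted length instead of the 61.1 given above.

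SCGB2A2 encodes mammaglobin A, a secretoglobin used as a marker of breast tissue (ENSG00000110484, chromosome 11, 62270158 to 62273160, plus strand). It had 18, 5, 14, 12, 10 and 6 counts in DHT replicates 1 to 6, against 17, 6, 41, 31, 27 and 8 counts in vehicle replicates 1 to 6. The 65 DHT counts and 130 vehicle counts gave 0.781 ± 0.347 CPM with DHT and 1.72 ± 0.883 CPM with vehicle (SD, n = 6 each). Vehicle replicates 3, 4 and 5 had the most counts, and the groups overlapped through vehicle replicates 1 and 2. Its log2 fold change of -1.16 (SE 0.43, 95% interval -2.08 to -0.23) did not pass (edgeR adjusted p = 0.243). Of the 8 genes in the main test, SCGB2A2 is the 1 that was lower at an unadjusted p under 0.05. With both replicate 2 libraries left out its log2 fold change was -1.13 and passed (adjusted p = 0.0378).

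SCGB1D2 encodes lipophilin B, the secretoglobin that pairs with mammaglobin A (ENSG00000124935, chromosome 11, 62242239 to 62244812). Its counts were 1, 0, 0, 0, 1 and 1 in DHT replicates 1 to 6, against 1, 0, 2, 3, 2 and 0 in vehicle replicates 1 to 6. No library exceeded 3 counts, the limit that a count of 0 allows, and that limit was 0.137 to 0.641 CPM depending on the library. It was too low for the main test, and the difference in mean CPM did not pass an exact two-sided permutation test (p = 0.253). The remaining 8 secretoglobin genes examined were not tested either, and 4 of them were at 0 in all 12 libraries.

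APOD and CLU encode secreted carriers of lipids and other hydrophobic molecules, and differed widely in level. APOD encodes apolipoprotein D, a lipocalin abundant in breast cyst fluid (ENSG00000189058, chromosome 3, 195568705 to 195584033, minus strand). It had 3, 1, 2, 4, 0 and 0 counts in DHT replicates 1 to 6, against 2, 1, 0, 17, 15 and 3 counts in vehicle replicates 1 to 6. Vehicle replicates 4 and 5 supplied most of its 38 vehicle counts and had the highest mitochondrial shares, 5.66% and 8.07%. The part of that in the result was not tested. The difference between the means, 0.119 ± 0.137 CPM with DHT and 0.531 ± 0.550 CPM with vehicle, did not pass an exact two-sided permutation test (p = 0.128, adjusted p = 0.192 over 3 such tests; SD, n = 6 each). In an edgeR fit with no filter on low counts the log2 fold change of APOD was -2.05 (unadjusted p = 0.0218, adjusted p = 0.501).

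CLU encodes clusterin, a secreted chaperone that binds unfolded proteins and lipids (ENSG00000120885, chromosome 8, 27596917 to 27614700, minus strand). It had 79.9, 96.6, 47.1, 53.0, 95.3 and 68.6 CPM in DHT replicates 1 to 6, against 90.0, 146, 74.2, 67.7, 155 and 74.1 CPM in vehicle replicates 1 to 6. Replicates 2 and 5 were the highest libraries of each group, and the groups overlapped. The mean was 73.4 ± 20.9 CPM with DHT and 101 ± 39.0 CPM with vehicle (SD, n = 6 each). Its log2 fold change was -0.46 (SE 0.25, 95% interval -0.996 to 0.07, adjusted p = 0.530), and -0.30 without vehicle replicate 5 (adjusted p = 0.772). The authors' deposited table lists -0.39 (FDR 0.256).

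DHRS2 and SERHL2 are not secreted proteins but intracellular enzymes used as apocrine markers. SERHL2 encodes a serine hydrolase-like protein (ENSG00000183569, chromosome 22, 42553617 to 42574382, plus strand). It had 5.87, 2.92, 5.07, 5.08, 4.97 and 3.77 CPM in DHT replicates 1 to 6, against 3.47, 1.41, 2.97, 2.43, 2.92 and 2.14 CPM in vehicle replicates 1 to 6. All DHT libraries but replicate 2 were above every vehicle library, and replicate 2 was the lowest library of each group. The mean was 4.61 ± 1.07 CPM with DHT and 2.56 ± 0.729 CPM with vehicle (SD, n = 6 each). Its log2 fold change of 0.83 (SE 0.23, 95% interval 0.33 to 1.32) did not pass in edgeR (adjusted p = 0.0807). It passed in DESeq2 (adjusted p = 0.0223) and in edgeR without DHT replicate 2 (adjusted p = 0.0288), and the authors' deposited table lists 0.87 (FDR 0.00398).

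Of the 40-base stretches in SERHL2 transcripts, 47.9% also occurred in other genes. The largest shares were 40.0% in the neighbouring copy SERHL, 32.0% in RRP7BP and 9.82% in RRP7A, and SERHL2 counts were not whole in all 12 libraries. SERHL, named here because of this overlap after its values were seen, averaged 1.24 ± 0.216 CPM with DHT and 0.643 ± 0.113 CPM with vehicle (SD, n = 6 each), with no overlap between the groups. Its log2 fold change was 0.94 (adjusted p = 0.0212 by edgeR), and the adjusted p ran from 0.0192 to 0.114 over the alternatives. It missed the threshold without DHT replicate 4 (0.0577), DHT replicate 5 (0.0529), vehicle replicate 1 (0.0581) or vehicle replicate 4 (0.0503), and with no filter on low counts. How far reads of either gene were counted for the other was not tested.

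DHRS2 encodes a short-chain dehydrogenase that reduces dicarbonyl compounds (ENSG00000100867, chromosome 14, 23630115 to 23645639, plus strand). It averaged 2.52 ± 1.04 CPM with DHT and 2.27 ± 1.27 CPM with vehicle (SD, n = 6 each), and the groups overlapped. DHT over vehicle, the log2 fold change was 0.12 (SE 0.37, 95% interval -0.67 to 0.91, adjusted p = 0.961). This interval is wide, and its sign turned when DHT replicate 1, DHT replicate 5 or vehicle replicate 4 was left out. No more than 2.23% of the 40-base stretches of any member other than AZGP1, AZGP1P1 and SERHL2 occurred in another gene.

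**Figure D3:**
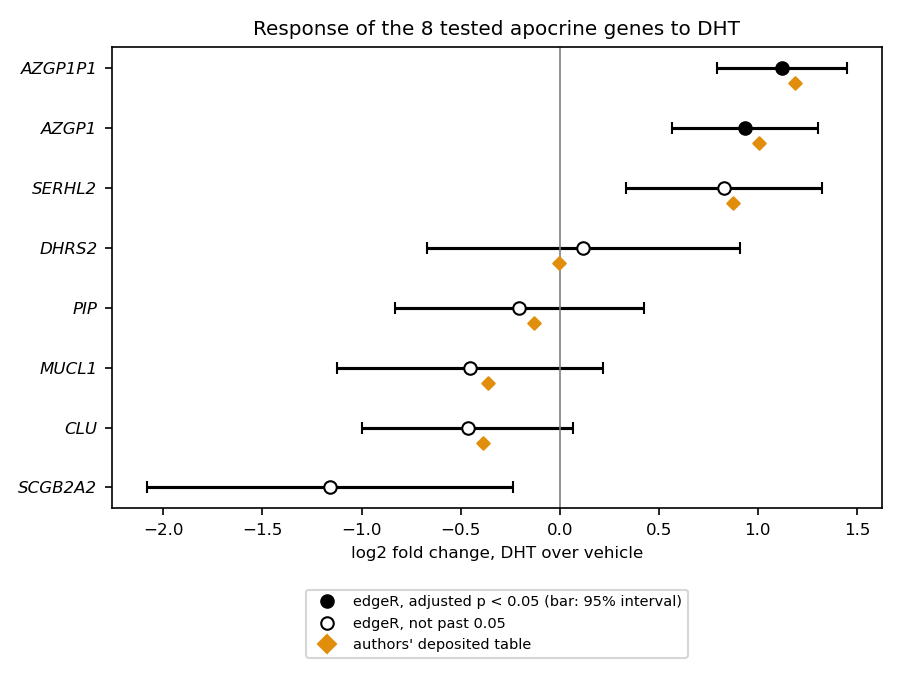
Log2 fold change (DHT over vehicle) of the 8 tested genes from edgeR (circles, filled where adjusted p is under 0.05, bars for the 95% interval), with the values of the authors' deposited table as diamonds where it lists the gene. AZGP1P1 at 1.12 and AZGP1 at 0.94 are the 2 filled circles, and the interval of SCGB2A2, at -1.16, is the widest.

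The sequence before the start of 7 of the 10 genes was found in RefSeq (GRCh38.p14), and 250 bases of each were searched on both strands. Of the motifs searched, the 2 reported here are one of FOX factors such as FOXA1 (TGTTTAC or GTAAACA) and one of AP-2 factors (GCCNNNGGC). The starts are those of RefSeq, so the AZGP1 window lies partly, and the MUCL1 and SERHL2 windows wholly, inside the counted gene models. Of 35116 such windows, 2.98% held the FOX motif and 19.8% the AP-2 motif. AZGP1, which DHT raised, held neither, and nor did PIP or DHRS2. SCGB2A2 held a FOX motif 102 bases before its start. SCGB1D2, MUCL1 and SERHL2 each held an AP-2 motif. The window of SCGB2A2 (chr11:62269908-62270157, plus strand) is shown, as the one with a FOX match, with the match in capitals.
SCGB2A2: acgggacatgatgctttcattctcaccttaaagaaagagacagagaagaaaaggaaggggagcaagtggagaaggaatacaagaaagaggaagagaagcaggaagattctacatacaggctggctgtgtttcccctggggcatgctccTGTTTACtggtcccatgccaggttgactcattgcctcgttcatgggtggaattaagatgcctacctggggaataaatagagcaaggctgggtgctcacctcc

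Other genes of apocrine epithelium, from a list of 30 that was chosen with earlier results of these data in view, included larger responses than any of the 10 described above. Of the 17 tested, 6 were raised (1.96% of all tested genes were), 0 were lowered (0.88% were) and 11 did not pass. The median log2 fold change was 0.23. At an unadjusted p under 0.05, 7 were raised (6.59% of all tested genes were) and 3 lowered (5.41% were) by edgeR. DESeq2 called 1 lowered. Over the alternatives the raised count ran from 4 to 7 and the lowered count from 0 to 3. With no filter on low counts, 28 of the list were tested and 4 were raised. CYP4F8, a fatty acid hydroxylase of the P450 family, averaged 47.7 ± 21.2 CPM with DHT and 0.409 ± 0.295 CPM with vehicle (log2 fold change 6.84, adjusted p = 7.68e-06). UGT2B11 and UGT2B28, of the family that attaches glucuronic acid to steroids, had 1558 and 764 counts in all under DHT and 11 and 3 counts under vehicle. Their edgeR adjusted p-values were 1.42e-07 and 2.78e-07. Their vehicle counts alone, like those of CYP4F8, were too low to pass the filter on low counts. These genes were therefore among the 17 tested only through the DHT libraries, where they were high.

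The most abundant genes of that list were AGR2, a protein disulfide isomerase of the secretory pathway, and CA12, a membrane carbonic anhydrase. AGR2 averaged 247 ± 67.0 CPM with DHT and 557 ± 332 CPM with vehicle (SD, n = 6 each), with vehicle replicate 5 highest at 1226.5 CPM. Every DHT library was below every vehicle library, which 0.991% of tested genes showed. Its log2 fold change of -1.17 missed the threshold (adjusted p = 0.0537), and was -0.78 without vehicle replicate 5, where it passed (adjusted p = 0.0364). DESeq2 called it too (adjusted p = 0.00428), as did edgeR when vehicle replicate 2 was dropped (adjusted p = 0.0339). CA12 averaged 770 ± 117 CPM with DHT and 696 ± 102 CPM with vehicle, and did not pass (adjusted p = 0.834).

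Among transcription factors and receptors of apocrine cells, FOXA1 and GATA3 fell. The list of 15 was also chosen with earlier results of these data known. Of the 15, 12 were tested, 2 were lowered (0.88% of all tested genes were), 0 were raised (1.96% were) and 10 did not pass. The median log2 fold change was -0.22. At an unadjusted p under 0.05, edgeR had 2 raised (6.59% of all tested genes were) and 4 lowered (5.41% were). DESeq2 called 1 raised and 3 lowered, and the lowered count ran from 1 to 5 over the alternatives. FOXA1, which opens chromatin for steroid receptors, averaged 363 ± 39.7 CPM with DHT and 612 ± 83.6 CPM with vehicle (log2 fold change -0.75, adjusted p = 0.00463). GATA3, a luminal transcription factor, fell by 0.59 on the log2 scale (adjusted p = 0.0253), a call that was lost when DHT replicate 1, 3, 4 or 6 or vehicle replicate 1 or 6 was left out (largest adjusted p = 0.0771), and with no filter on low counts (adjusted p = 0.131). TFAP2B, which encodes AP-2 beta, averaged 559 ± 61.5 CPM with DHT and 575 ± 63.1 CPM with vehicle (adjusted p = 0.961). ERBB2, a growth factor receptor, did not pass at -0.80 (adjusted p = 0.0649). It passed in DESeq2 (0.00751), with upper-quartile scaling (0.0383), and in edgeR without DHT replicate 2 (0.0246), without vehicle replicate 2 (-0.58, 0.0440) or without both (0.00154).

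**Figure D4:**
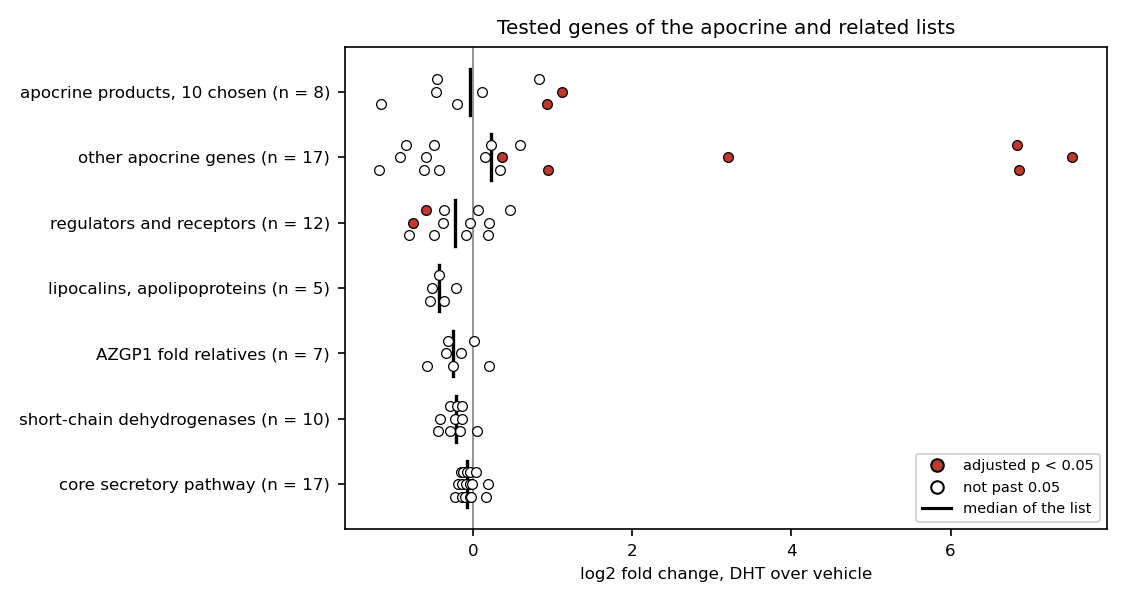
Log2 fold change (DHT over vehicle) of the tested genes of the 10 apocrine products and of 6 lists of related genes, 1 point per gene, filled where the edgeR adjusted p is under 0.05, with the median of each list as a vertical bar. The filled points lie to the right of 0 among the apocrine genes and to the left of 0 among the regulators and receptors.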

How the data were processed

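RNA-seq reads had 40 bases. Per the submitters' processing notes the tools were STAR and featureCounts and the build GRCh38, with versions and strand setting not given in the sources used. Per the labels' protocols a total RNA kit was used, while the design text says poly-A, and this was not resolved. Between 39.6% and 46.7% of nonzero values per library were not whole (tolerance 0.005), so the deposited table was taken as estimated counts. They were rounded before testing, although whole counts had been planned for. A record of 1 gene broken over 3 lines was dropped. The authors also deposited a comparison of 14559 genes (log2 fold changes, log2 mean CPM, p-values and FDR, per the file headers), which omits APOD, SCGB2A2 and SCGB1D2. A gene length column in the deposited counts table gave counted lengths.

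After the filterByExpr filter and TMM scaling, the test was run in edgeR 4.0.16 (R 4.3.3, group as the only term, adjusted p under 0.05 over 16355 genes). SE was taken as the log2 fold change divided by the root of F. On simulated counts (16128 genes, DHT against vehicle) the test recovered 55% of 2-fold and 9% of 1.5-fold changes. A change of 2-fold or less can therefore be missed, and larger ones were not simulated. The changed genes were drawn at random, so these shares do not describe genes with few counts, such as SCGB2A2. Its log2 fold change of -1.16 did not pass. Alternatives used DESeq2 1.42.0, limma-voom (limma 3.58.1), other scalings and filters, unrounded counts, a replicate block and libraries left out. The 3 features tested singly used exact permutation. No 2 libraries of a group were alike within sampling noise. Limits from a count of 0 cover counting error only, while the edgeR intervals include the spread between libraries. Transcripts were from GENCODE v29, whose gene spans differ from the counted models.

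The genes described and the lists were chosen with earlier results of these data known. From each list the text names up to 3 raised and 3 lowered genes and the 2 with the highest CPM per kb, plus FOXA1, TFAP2B and ERBB2. For each raised member it names the 3 genes with the closest profile, from log2 CPM with 0.1 added. SERHL and LCN2 were named beyond this rule. Some items are not reported here.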

Additional observations from a re-analysis of the deposited data

Results flagged for a closer look

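MUCL1 was examined again because 1 library stood apart in each group. DHT replicate 1 had 36.9 CPM, and its gap to the next library was 0.690 of the range of the DHT libraries. Vehicle replicate 5 had 60 CPM, with a gap of 0.665 of the range of the vehicle libraries. Both gaps are above the critical value of Dixon's test at the 95% level for groups of 6. Among 20 groups examined (10 genes in 2 groups), about 1 would be marked by chance. DHT replicate 1 was also the highest DHT library for PIP, at 43.3 CPM, and vehicle replicate 5 the highest vehicle library for PIP, at 47.8 CPM, and for CLU, at 155 CPM. The mitochondrial share was 3.42% in DHT replicate 1 and 8.07% in vehicle replicate 5. The part of that share in the MUCL1 level was not tested.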

How the results depend on the processing

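AZGP1 and AZGP1P1 passed in all 22 alternatives, with log2 fold changes of 0.88 to 1.15 and 1.06 to 1.35. PIP, MUCL1 and DHRS2 passed in none. With 1 library left out the log2 fold change of PIP ran from -0.44 to 0.0084 and that of DHRS2 from -0.060 to 0.46. The sign turned for PIP without vehicle replicate 5 (0.0084), also when both replicate 2 libraries were dropped with it (0.026). It turned for DHRS2 without DHT replicate 1 (-0.0057), DHT replicate 5 (-0.042) and vehicle replicate 4 (-0.060). With 1 library left out, the members raised numbered 2 to 3, the members lowered 0 to 0, and all genes raised 189 to 434 and lowered 86 to 199. DESeq2 gave 510 raised and 283 lowered genes. An adjusted p under 0.01 gave 137 and 58, and no filter on low counts gave 90 lowered. Without both replicate 2 libraries there were 608 raised and 312 lowered, with 1 member lowered (SCGB2A2) and SERHL2 raised (adjusted p = 0.0136). Without these and vehicle replicate 5, an alternative chosen after seeing the data, there were 1096 and 673, again with 1 member lowered (SCGB2A2, adjusted p = 0.0287). The cause was not tested.

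The replicate numbers were not taken to pair the samples. Same-number correlations of deviations were -0.24 for replicate 5 and 0.26 to 0.87 for the others. Those between different numbers ran from -0.69 to 0.52, and 3 of 6 DHT libraries correlated best with their own number. The main fit therefore leaves any effect of the replicate number in the spread between libraries. With the replicate number as a block there were 764 raised (4.67% of those tested) and 522 lowered genes (3.19%). The members lowered were then 2, CLU (-0.43, adjusted p = 0.0244) and SCGB2A2 (-1.07, adjusted p = 0.0418), and SERHL2 joined the raised members (adjusted p = 0.00278). Of other named genes, AGR2 (-1.065, adjusted p = 0.00453), ERBB2 (-0.77, adjusted p = 0.00108) and XBP1 (-0.47, adjusted p = 0.0126) were lowered in the block fit. That fit also lowered 1 of the 10 short-chain dehydrogenases tested. The excess of AZGP1P1 as a percent of AZGP1 was 2.02 to 2.55 percentage points with 1 library left out (exact permutation p = 0.00216 to 0.00649). It was 2.38 without both replicate 2 libraries. The main comparison of this percent was not planned, and both of these checks were chosen after seeing the data. Depth limits SCGB1D2 and APOD, with 3 and 10 counts in all DHT libraries and 8 and 38 in all vehicle libraries.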

Other observations

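Relatives of the described genes, and the machinery that exports secreted proteins, were measured as lists of their own. Among genes with the MHC class I fold that AZGP1 shares, 7 of 8 were tested and 0 passed (0 at an unadjusted p under 0.05, and 0 in DESeq2 and limma-voom). B2M, the light chain of MHC class I molecules, averaged 459 ± 49.1 CPM with DHT and 509 ± 229 CPM with vehicle (SD, n = 6 each), and MICA, a stress-induced ligand, 35.3 ± 2.17 CPM with DHT and 35.1 ± 1.84 CPM with vehicle. Their edgeR adjusted p-values were 0.910 and 0.990.

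Of 19 lipocalins and apolipoproteins related to APOD, 5 were tested and 0 passed by edgeR, with 0 at an unadjusted p under 0.05 and 0 in DESeq2 and limma-voom. LCN2, a lipocalin of many inflamed epithelia named after its values were seen, had 0 counts in all 12 libraries. APOL2 averaged 21.1 ± 3.31 CPM with DHT and 24.5 ± 6.10 CPM with vehicle, and AMBP 3.66 ± 1.37 CPM with DHT and 4.74 ± 1.86 CPM with vehicle (SD, n = 6 each). Of 12 short-chain dehydrogenases related to DHRS2, 10 were tested and 0 passed in the main edgeR fit, DESeq2 or limma-voom. At an unadjusted p under 0.05 in edgeR, 1 was lower (5.41% of all tested genes were). DHRS7 averaged 56.4 ± 6.10 CPM with DHT and 61.9 ± 9.29 CPM with vehicle, and DHRS4 15.4 ± 3.43 CPM with DHT and 18.8 ± 4.27 CPM with vehicle.

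All 17 genes of the core secretory pathway were tested and 0 passed (edgeR, 0 at an unadjusted p under 0.05, and 0 in DESeq2 and limma-voom), with a median log2 fold change of -0.08. HSPA5, the main chaperone of the endoplasmic reticulum, averaged 417 ± 49.9 CPM with DHT and 458 ± 75.6 CPM with vehicle, and SRP14, of the signal recognition particle, 225 ± 16.8 CPM with DHT and 264 ± 94.8 CPM with vehicle (SD, n = 6 each). XBP1 and SPDEF, transcription factors of secretory cells and the most abundant of the regulators, had log2 fold changes of -0.49 and -0.37 that did not pass (edgeR adjusted p = 0.424 and 0.764). XBP1 passed with both replicate 2 libraries left out (-0.45, adjusted p = 0.0442) and with vehicle replicate 5 left out as well (-0.38, adjusted p = 0.0187), and SPDEF passed in no alternative.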
